A study of Mus musculus with 8 samples.

Results

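Genes of the chemical synapse were followed in mouse corpus callosum, the white matter tract that connects both cerebral hemispheres, after a short cuprizone diet. The list held 40 genes, namely 23 of the presynaptic terminal, 16 of the postsynaptic side and Vsnl1, a neuronal calcium sensor placed on neither side. A gene was measured where a transcript cluster of the array, that is the probes along one transcript, carried its symbol alone, and the brightest such cluster stood for it. This left 38 of the 40 genes, 22 presynaptic, 15 postsynaptic and Vsnl1, among 19938 genes measured in this way. Vamp2, the main synaptobrevin of forebrain vesicles, and Grin1, the obligatory NMDA receptor subunit, had no single-symbol cluster and were not analysed here. All 38 members lay above the median level of the clusters tested, so a filter at that level would remove none.

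The cuprizone group comprised 4 male wild-type C57BL/6 mice aged 8 weeks per the labels, fed 0.25% cuprizone, a copper chelator toxic to oligodendrocytes, for 1 week. The control group comprised 4 male wild-type C57BL/6 mice of the same labelled age on normal diet. Tissue was dissected by hand after perfusion with ice-cold PBS, and each sample was hybridised to its own Affymetrix Mouse Gene 1.0 ST array. All levels below are log2 values as deposited, and a change is the cuprizone mean minus the control mean on that scale.

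A vesicle fuses when the SNARE proteins of its membrane and of the terminal zip together, with synaptotagmins as calcium sensors and complexins as regulators of the final step. Active zone scaffolds hold vesicles next to calcium channels, and transporters fill them with glutamate or GABA. Across the cleft, glutamate and GABA receptors are anchored by scaffold proteins such as PSD-95 and the Shank family. The callosum consists mostly of axons and glia, and most synapses lie in the adjoining grey matter, although axons in white matter also form synapses with oligodendrocyte progenitors.

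Markers of the labelled tissue were measured first. All 10 measured markers of mature oligodendrocytes fell, with a median change of -2.08, and Mog, a myelin surface glycoprotein, averaged 7.36 ± 0.45 in cuprizone mice and 11.14 ± 0.12 in control mice (SD, n = 4 each). Neuronal transcripts were measured beside them. Rbfox3, which encodes the neuronal nuclear protein NeuN, averaged 10.76 ± 0.10 in cuprizone mice and 10.84 ± 0.13 in control mice, a change of -0.09 ± 0.08 (SE, limma adjusted p = 0.612). In such bulk tissue, fewer neurons or processes, less transcript in each of them and a different share of adjoining tissue cannot be told apart.

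After 1 week of cuprizone, 1 of the 38 synaptic genes passed the test, namely Syt4, which was 1.5-fold higher, and none passed it in the lower direction. Over all 23410 clusters tested, 8.22% passed at a limma adjusted p under 0.05, 4.71% higher and 3.52% lower, and the synaptic share was 2.63%. At an unadjusted p under 0.05, 9 members were lower and 1 was higher, together 26.3% of the members, against 20.8% of all clusters in either direction. The lower ones were 23.7% of the members, against 9.68% of all clusters. Since all members are bright, they were also set beside the 9909 genes brighter than the median cluster, of which 27.2% had an unadjusted p under 0.05, 13.6% in the lower direction, and 11.8% passed the test. The estimated change was below 0 in 31 of 38 members, with a median of -0.08, while it was below 0 in 52.6% of all clusters, with a median of -0.01, and in 51.2% of the brighter genes. The 95% interval of the change, from limma and not adjusted for the number of genes, lay within 1.5-fold in both directions for 37 of the 38 members, all except Syt4. The same held for 94.8% of all clusters, so this precision is that of the arrays in general. Within 1.2-fold it lay for 22 members.

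**Figure D1:**
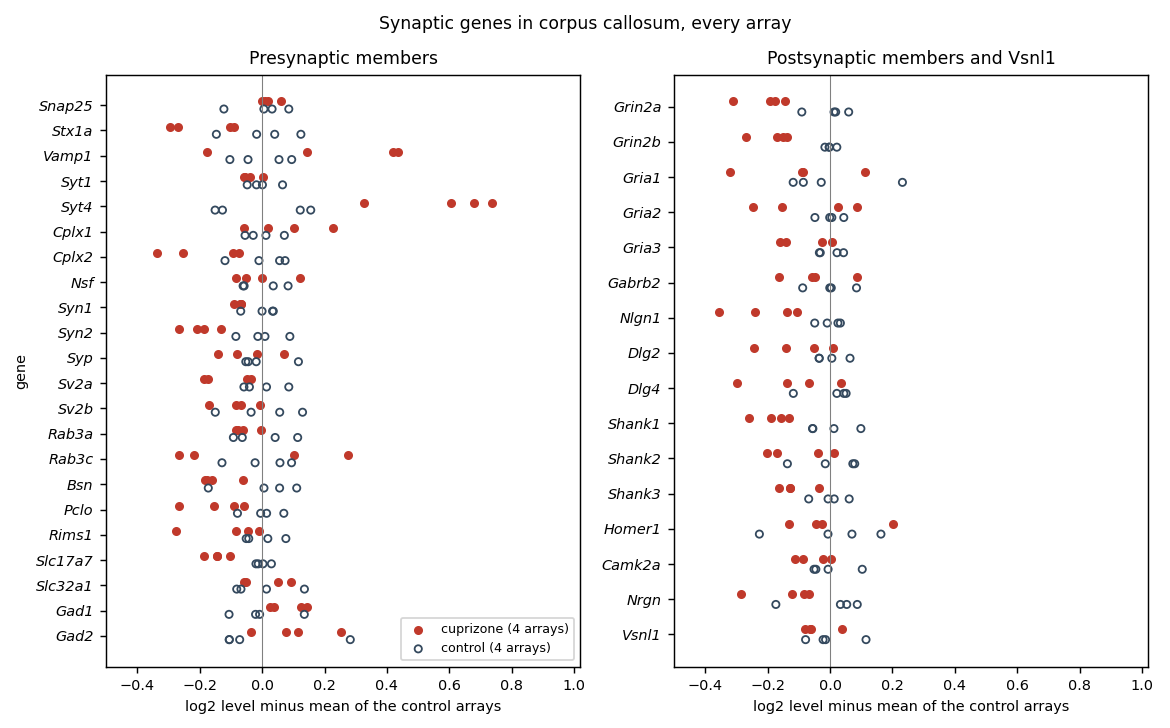
Log2 level of each measured synaptic gene on each array, minus the mean of the 4 control arrays of that gene (x axis). Filled points are cuprizone arrays and open points control arrays. The 4 cuprizone points of Syt4 lie right of all its control points, and those of Syn2, Slc17a7, Grin2a, Grin2b, Nlgn1 and Shank1 lie left of theirs.

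Among the synaptotagmins, Syt4 was the member that rose. Syt4 encodes an atypical vesicle synaptotagmin whose first calcium-binding domain lacks a residue needed to bind calcium, and its transcript is known to be induced by depolarisation in rat neurons. Its level (transcript cluster 10457942) was 10.54, 10.19, 10.60 and 10.47 in cuprizone mice 1 to 4, against 9.72, 10.02, 9.99 and 9.74 in control mice 1 to 4. The lowest cuprizone value, on replicate 2, still lay above the highest control value, on control replicate 2. The change was 0.59 ± 0.10 (SE, 95% interval 0.36 to 0.81, limma adjusted p = 0.00434). Leaving out single arrays and the other alternatives run gave changes between 0.54 and 0.67 and limma adjusted p between 0.000894 and 0.0182. Which cells of the tissue carried the Syt4 transcript was not tested. Syt1, the fast calcium sensor of release, was 12.65, 12.65, 12.71 and 12.67 in cuprizone mice, against 12.66, 12.71, 12.77 and 12.69 in control mice. The groups overlapped, and the change was -0.04 ± 0.05 (95% interval -0.15 to 0.07).

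Of the 3 measured SNARE genes none passed the test, and 1, Stx1a, had an unadjusted p under 0.05. Snap25, the SNARE of the plasma membrane that carries a pair of helices, was 12.84, 12.83, 12.88 and 12.82 in cuprizone mice, against 12.70, 12.85, 12.91 and 12.83 in control mice. All cuprizone values lay inside the control range, and the change was 0.02 ± 0.06 (95% interval -0.11 to 0.15). Stx1a, its partner syntaxin, averaged 9.05 ± 0.11 in cuprizone mice and 9.24 ± 0.11 in control mice (SD, n = 4 each), with a limma adjusted p of 0.168. Vamp1, a synaptobrevin abundant in brainstem and spinal cord, varied between the cuprizone mice. It was 10.82, 11.11, 11.10 and 10.50 in cuprizone mice, against 10.73, 10.77, 10.63 and 10.57 in control mice. Cuprizone replicates 2 and 3 were high and replicate 4 was below every control, so that the change of 0.21 ± 0.12 had a limma adjusted p of 0.390, with 0.0475 without cuprizone replicate 4.

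Of the regulators of fusion beside the synaptotagmins, none passed the test. Complexin 1, Cplx1, averaged 11.88 ± 0.12 in cuprizone mice and 11.81 ± 0.05 in control mice. Complexin 2, Cplx2, which predominates in excitatory forebrain neurons, was 10.10, 9.86, 9.94 and 10.12 in cuprizone mice, against 10.08, 10.27, 10.25 and 10.19 in control mice. Cuprizone replicates 2 and 3 were lowest, the groups overlapped through control replicate 1, and the change was -0.19 ± 0.07 (limma adjusted p = 0.163). Nsf, the ATPase that takes SNARE complexes apart after fusion, had a change of -0.0039 ± 0.06, with a 95% interval of -0.14 to 0.14.

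The 7 genes of the vesicle membrane and its coat had changes of -0.20 to -0.03, none past the test. Syn2, a synapsin that tethers vesicles in the reserve pool, was 10.62, 10.54, 10.60 and 10.67 in cuprizone mice, against 10.89, 10.72, 10.81 and 10.79 in control mice. The groups did not overlap, and the change of -0.20 ± 0.06 had a limma adjusted p of 0.0610. Syn1, its paralogue, was 11.32, 11.30, 11.32 and 11.32 in cuprizone mice, against 11.32, 11.42, 11.42 and 11.39 in control mice. Its cuprizone values were closely spaced, SD 0.01, and control replicate 1 lay among them, with a change of -0.07 ± 0.05.

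The remaining vesicle genes had intervals that included 0. Synaptophysin, Syp, a tetraspan membrane protein of the vesicle, averaged 11.54 ± 0.09 in cuprizone mice and 11.58 ± 0.08 in control mice (SD, n = 4 each). The vesicle glycoprotein genes Sv2a and Sv2b had changes of -0.11 ± 0.06 and -0.08 ± 0.07. The GTPase gene Rab3a, whose product docks vesicles, had a change of -0.06 ± 0.06. Rab3c, a close relative, was 9.70, 10.02, 10.19 and 9.65 in cuprizone mice, against 10.01, 9.79, 9.97 and 9.89 in control mice. Cuprizone replicates 2 and 3 lay above every control and replicates 1 and 4 below every control, and the change was -0.03 ± 0.11.

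The 3 active zone genes, Bsn, Pclo and Rims1, had changes between -0.15 and -0.10 and none passed the test. Pclo, which encodes the giant scaffold piccolo, averaged 10.59 ± 0.09 in cuprizone mice and 10.73 ± 0.06 in control mice, a change of -0.14 ± 0.06 (limma adjusted p = 0.218). Bsn, which encodes the related scaffold bassoon, had a change of -0.15 ± 0.07, and Rims1, which links vesicles to calcium channels, one of -0.10 ± 0.07.

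None of the 4 genes of transmitter identity passed the test. Slc17a7, the vesicular glutamate transporter of cortical neurons, was 11.24, 11.28, 11.28 and 11.33 in cuprizone mice, against 11.43, 11.41, 11.46 and 11.42 in control mice. The groups did not overlap, and the change of -0.15 ± 0.05 had a limma adjusted p of 0.105. The GABA-synthesising enzyme gene Gad1 was 11.14, 11.23, 11.24 and 11.13 in cuprizone mice, against 11.24, 11.08, 11.09 and 10.99 in control mice. The groups overlapped through control replicate 1, and the change was 0.08 ± 0.06. Gad2, its paralogue, was 10.35, 10.64, 10.50 and 10.46 in cuprizone mice, against 10.67, 10.31, 10.28 and 10.28 in control mice. Control replicate 1 stood above every other array, while the other controls stood below every cuprizone array, with a change of 0.10 ± 0.10, which was 0.196 without that control replicate and 0.0513 without cuprizone replicate 2. Slc32a1, the vesicular transporter of GABA and glycine, had a change of 0.01 ± 0.07, with a 95% interval of -0.14 to 0.15.

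None of the 15 postsynaptic members passed the test, and 4 had an unadjusted p under 0.05, all 4 lower. These were 26.7% of the 15, against 20.8% of all clusters and 27.2% of the brighter genes in either direction. In the lower direction alone, the shares were 9.68% of all clusters and 13.6% of the brighter genes. Every estimate was at or below 0, from -0.21 for Nlgn1 to -0.000125 for Homer1. Among the receptors, Grin2a, the NMDA receptor subunit GluN2A that prevails after early postnatal life, was 10.41, 10.36, 10.24 and 10.38 in cuprizone mice, against 10.61, 10.46, 10.57 and 10.56 in control mice. The groups did not overlap, and the change of -0.21 ± 0.06 had a limma adjusted p of 0.0573. Grin2b, the subunit GluN2B, was 10.90, 10.87, 10.77 and 10.89 in cuprizone mice, against 11.03, 11.06, 11.02 and 11.03 in control mice. These groups did not overlap either, and the change of -0.18 ± 0.05 had a limma adjusted p of 0.0571.

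The AMPA receptor subunit genes Gria1, Gria2 and Gria3 had changes of -0.10 ± 0.10, -0.07 ± 0.08 and -0.08 ± 0.06. These subunits are carried by neurons and also by oligodendrocyte progenitors. Of 9 progenitor markers 1 fell, and their mean was -0.34 to -0.09 in cuprizone mice, against -0.06 to 0.05 in control mice, whose part in these values was not tested. Gria1 was 10.88, 10.87, 10.64 and 11.07 in cuprizone mice, against 11.19, 10.84, 10.93 and 10.88 in control mice. Its highest value was on control replicate 1 and its lowest on cuprizone replicate 3. The change of Gria1 was -0.0197 without that control, -0.0228 without that cuprizone mouse and -0.166 without cuprizone replicate 4. Gria2 had a change of -0.0142 when cuprizone replicate 3 was left out and of -0.125 when replicate 4 was. Gabrb2, a subunit of the GABA-A receptor, had a change of -0.05 ± 0.07, with -0.05 and -0.06 on its further 2 single-symbol clusters.

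Of the adhesion and scaffold genes, Nlgn1 and Shank1 had groups that did not overlap. Nlgn1, a neuroligin that binds presynaptic neurexins at excitatory synapses, was 9.69, 9.56, 9.45 and 9.66 in cuprizone mice, against 9.79, 9.83, 9.83 and 9.75 in control mice, a change of -0.21 ± 0.06 (limma adjusted p = 0.0751). Shank1, a deep scaffold of the postsynaptic density, was 10.33, 10.39, 10.26 and 10.36 in cuprizone mice, against 10.46, 10.46, 10.53 and 10.62 in control mice. Its change was -0.18 ± 0.06 (limma adjusted p = 0.0823), beside -0.10 ± 0.07 for Shank2 and -0.11 ± 0.05 for Shank3. Shank2 had 2 further clusters, at -0.05 and 0.03.

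Dlg4, which encodes PSD-95, was 11.58, 11.51, 11.35 and 11.68 in cuprizone mice, against 11.53, 11.70, 11.67 and 11.69 in control mice, and the groups overlapped. Its change was -0.12 ± 0.08, beside -0.11 ± 0.06 for its paralogue Dlg2. Homer1, a scaffold that couples metabotropic glutamate receptors to internal calcium stores, averaged 10.93 ± 0.14 in cuprizone mice and 10.93 ± 0.17 in control mice. The cluster did not separate its short activity-induced form from the long ones. Of the dendritic calcium signalling genes, Camk2a, a kinase subunit needed for synaptic plasticity, had a change of -0.05 ± 0.06, and Nrgn, which encodes the calmodulin-binding protein neurogranin, one of -0.14 ± 0.07. Vsnl1 averaged 12.93 ± 0.05 in cuprizone mice and 12.97 ± 0.08 in control mice, a change of -0.04 ± 0.06.

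**Figure D2:**
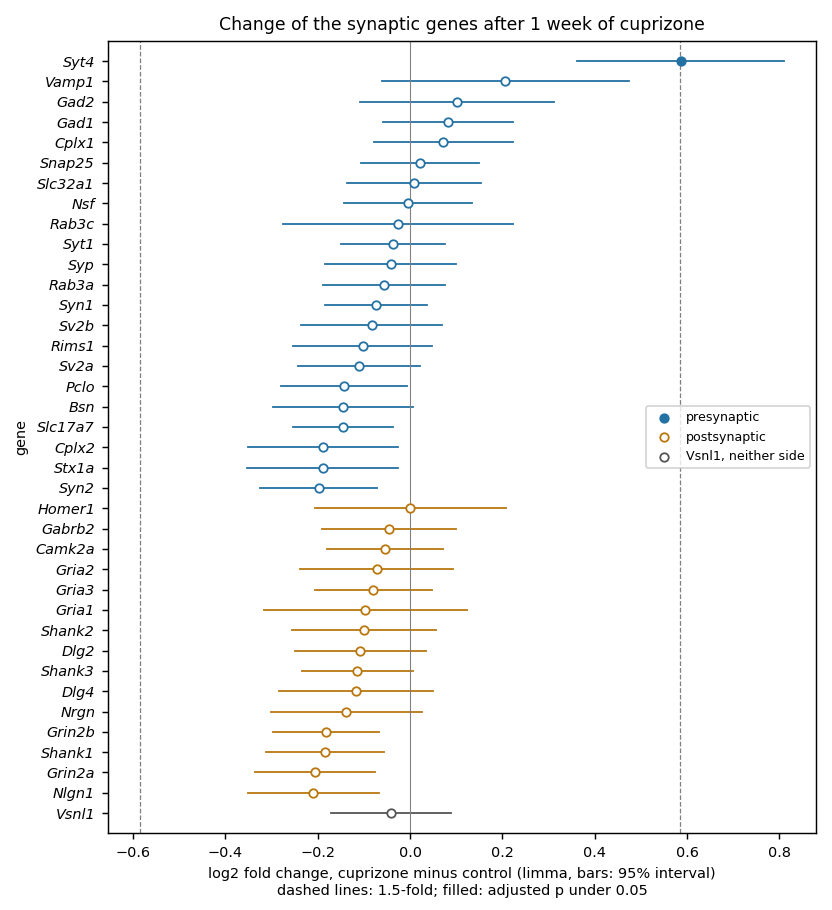
Log2 fold change of each measured synaptic gene, cuprizone minus control (points), with its 95% interval from limma (bars). Dashed lines mark 1.5-fold, and a filled point marks a limma adjusted p under 0.05. The point of Syt4, at 0.59, is the filled one, and its interval is the one that crosses a dashed line.

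The groups did not overlap in 7 members, with Syt4 higher and Syn2, Slc17a7, Grin2a, Grin2b, Nlgn1 and Shank1 lower. The lower ones were 15.8% of the members, against 7.09% of all clusters, while 8.24% of all clusters were higher without overlap. Over both directions the shares were 18.4% of the members and 15.3% of all clusters. Of the genes brighter than the median cluster 22.4% did not overlap, and 1089 of the 9909, or 11%, were lower without overlap. Over both directions the members' share was thus below that of these brighter genes, which were not matched to the members' levels. In the lower direction the members' share, 15.8%, was above the 11% of the brighter genes. These 6 lower genes were the members that passed the test in addition when it was limited to clusters above the median level, with limma adjusted p between 0.0221 for Grin2b and 0.0419 for Slc17a7. In that fit 18.4% of the members were called, against 16.3% of all 11705 clusters tested, and in the lower direction 15.8%, against 7.47%. Of the 6, all except Slc17a7 passed when limma used a robust prior that follows intensity. With that prior 15.8% of the members were called, against 9.54% of all clusters, and in the lower direction 13.2%, against 4.11%.

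The presynaptic and postsynaptic genes were then set side by side by array. Relative to the mean of the control arrays, the mean of the 22 presynaptic genes was -0.05, -0.02, 0.03 and -0.05 in cuprizone mice 1 to 4, against -0.01, 0.01, 0.04 and -0.03 in control mice. These ranges overlapped. The mean of the 15 postsynaptic genes was -0.08, -0.12, -0.22 and -0.04 in cuprizone mice, against -0.03, -0.01, 0.03 and 0.01 in control mice. Here the ranges did not overlap, with nearest values of -0.0406 on cuprizone replicate 4 and -0.0337 on control replicate 1. The median change was -0.05 over the 22 presynaptic and -0.11 over the 15 postsynaptic genes. The means of 66 other presynaptic and 69 other postsynaptic genes, counted further below, did not overlap between the groups either. They were -0.12 to -0.07 and -0.14 to -0.09 in cuprizone mice, against -0.02 to 0.02 for both lists in control mice. No p is given for these means, since the genes were chosen with earlier results known.

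The distance between both sides rested largely on 1 mouse. The presynaptic minus the postsynaptic mean was 0.03, 0.10, 0.24 and -0.01 in cuprizone mice, against 0.02, 0.02, 0.00 and -0.04 in control mice, so the groups overlapped. Cuprizone replicate 3 held the lowest cuprizone level of 13 of the 15 postsynaptic genes and the highest of 11 of the 22 presynaptic genes. Without it, the group difference of this measure was 0.04 in place of 0.09, and the median change was -0.08 for presynaptic and -0.07 for postsynaptic genes. The presynaptic median was -0.02 without control replicate 3. The presynaptic mean also held Syt4, which changed by 0.59. With the median of each side in place of its mean, the group difference was 0.08 with all arrays.

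**Figure D3:**
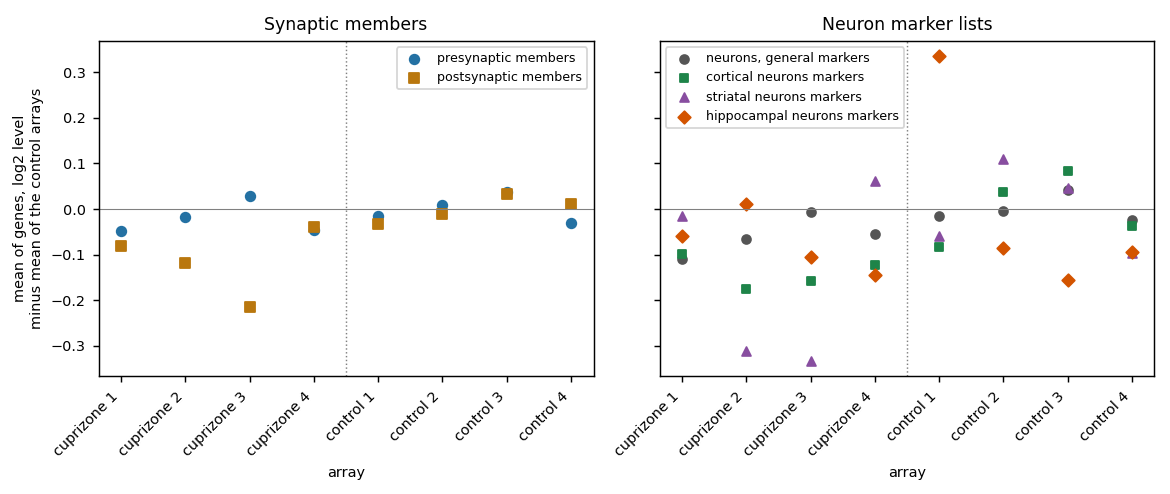
Mean of the genes of a list on each array, as log2 level minus the mean of the 4 control arrays (y axis), with cuprizone arrays left of the dotted line and control arrays right of it. The left panel shows the 22 presynaptic and the 15 postsynaptic genes, which lie farthest apart on cuprizone replicate 3. The right panel shows 4 lists of neuron markers, among which the striatal mean is at -0.31 and -0.33 on cuprizone replicates 2 and 3.

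Markers of the neurons around the callosum also differed between arrays. The mean of 8 striatal neuron markers was -0.02, -0.31, -0.33 and 0.06 in cuprizone mice 1 to 4, against -0.10 to 0.11 in control mice. The 4 cuprizone mice had the same order on it as on the postsynaptic mean, while the 4 control mice had different orders on both, lowest to highest 4, 1, 3, 2 on the striatal mean and 1, 2, 4, 3 on the postsynaptic mean. The mean of 8 cortical neuron markers was -0.18 to -0.10 in cuprizone mice, against -0.08 to 0.08 in control mice, and 2 of the 8 fell. Neurod6, a transcription factor of cortical excitatory neurons, averaged 8.30 ± 0.17 in cuprizone mice and 8.52 ± 0.10 in control mice (limma adjusted p = 0.159). Of the 17 general neuron markers 1 fell and none rose, and their mean was -0.11 to -0.01 in cuprizone mice, against -0.02 to 0.04 in control mice.

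The mean of 8 hippocampal neuron markers was -0.15 to 0.01 on the cuprizone arrays, while control replicate 1 was at 0.34 and its group mates at -0.16 to -0.09. Control replicate 1 also held the highest control level of 9 of the 38 members, among them Gad2 and Gria1. It held the lowest control level of 17, among them Snap25, Syt4 and Homer1. None of the 8 hippocampal and none of the 8 striatal markers passed limma's threshold, and 0 and 1 had an unadjusted p under 0.05. Log2 levels without detection calls do not show whether a marker was absent. The part of these neuron markers in the synaptic values was not tested.

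Paralogues were compared within each array, so that a shift shared by both genes cancels. For 15 pairs the difference in log2 level between the genes was compared between diets, by a two-sided exact permutation test. It covered the 70 ways to assign 4 of the 8 arrays to a diet, and its smallest possible p is 0.0286. The Syt4 minus Syt1 difference was 0.62 ± 0.10 higher in cuprizone mice (SE, n = 4 each), with no overlap of the groups and an exact p of 0.0286. After Benjamini-Hochberg adjustment over the 15 pairs the exact test gave 0.321, while limma on the same differences gave an adjusted p of 0.000179. Syt4 was already called on these arrays and Syt1 changed by -0.04, so this difference is no separate evidence. Relative to the control mean, the difference stood at 0.73, 0.38, 0.73 and 0.64 in cuprizone mice, against -0.10, 0.16, 0.06 and -0.11 in control mice.

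With 15 pairs the adjusted exact test could pass none unless 9 or more pairs reached its smallest p, so that its outcome was set by the design. No other pair passed after adjustment by limma. The Cplx2 minus Cplx1 difference was -0.26 ± 0.12 in cuprizone relative to control mice (exact p = 0.0571, adjusted 0.321). It stood at -0.11, -0.44, -0.48 and -0.02 in cuprizone mice, against -0.09 to 0.06 in control mice, so the size came from replicates 2 and 3. The Gad2 minus Gad1 difference was 0.02 (95% limma interval -0.13 to 0.17), the Grin2b minus Grin2a difference 0.02 (-0.10 to 0.15) and the Dlg4 minus Dlg2 difference -0.01 (-0.14 to 0.12). Pairs that share a gene, such as those of the Shank and AMPA receptor families, are not independent.

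**Figure D4:**
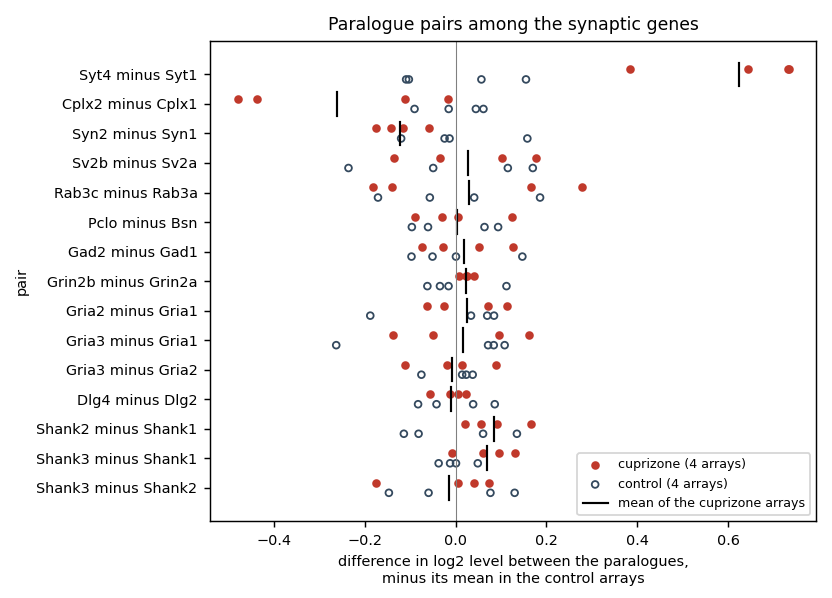
Difference in log2 level between the paralogues of each pair on each array, minus the mean of that difference in the 4 control arrays (x axis). Filled points are cuprizone arrays, open points control arrays, and the black bar is the mean of the cuprizone arrays. Syt4 minus Syt1 is the pair whose groups lie apart.

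Further genes of the synapse, outside the 40, were counted in the same fit. Of 66 measured other presynaptic genes 1 rose and 6 fell, 10.6% in all, with a median change of -0.09. Of all clusters 8.22% passed in either direction and 3.52% in the lower direction. Of the 9909 genes brighter than the median cluster 11.8% passed, 547 of them lower. Snap23, the broadly expressed relative of Snap25, rose by 0.28 ± 0.06 (limma adjusted p = 0.0197). The 5 decreases with the smallest p were those of Bin1, Sypl, Unc13a, Syt11 and Synpr. Bin1, a membrane-curving protein also abundant in mature oligodendrocytes, changed by -0.46 ± 0.07, and Sypl, a synaptophysin relative of many tissues, by -0.30 ± 0.06. Unc13a, the vesicle priming factor Munc13-1, changed by -0.24 ± 0.06, Syt11, a synaptotagmin that does not bind calcium, by -0.20 ± 0.05, and the vesicle protein Synpr by -0.29 ± 0.07. The count was 3 to 5 when any 1 array was left out, and Snap23 was not called without cuprizone replicate 3 or 4 or control replicate 1 or 3.

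Of 69 measured other postsynaptic genes 4 fell and none rose, with a median change of -0.12. This was 5.80% in all, against 8.22% of all clusters in either direction and 3.52% in the lower direction. Of the genes brighter than the median cluster 11.8% passed in either direction. Grm3, a metabotropic glutamate receptor that astrocytes also carry, averaged 10.76 ± 0.08 in cuprizone mice and 11.24 ± 0.09 in control mice, a change of -0.49 ± 0.06 (limma adjusted p = 0.000761). Grin2c, an NMDA receptor subunit of cerebellar granule cells and of some glia, changed by -0.50 ± 0.10, Gabra2, a GABA-A receptor subunit, by -0.36 ± 0.07, and Dlgap3, a scaffold that binds PSD-95, by -0.24 ± 0.06. Bin1, Sypl, Snap23, Grm3 and Grin2c are known also from glia or other non-neuronal cells. Beside them, 4 of 8 astrocyte markers rose and 2 fell, with a mean of -0.04 to 0.19 in cuprizone mice, against -0.05 to 0.08 in control mice. Of 7 measured microglia markers 5 rose and none fell, with a mean of 0.28 to 0.61 in cuprizone mice, against -0.05 to 0.04 in control mice. The part of these glial markers in the synaptic values was not tested, and levels in bulk tissue do not assign a transcript to a cell type.

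Promoter sequence was available for 29 of the 38 genes, in 44 windows from 250 bases before to 50 after a start site (RefSeq, GRCm38.p6). A pair of elements known from neuronal genes was searched on both strands, namely the cyclic AMP response element TGACGTCA and the left part of the RE1 element, TTCAGCACC, at which the repressor REST silences neuronal genes in other cells. The first was found in 1 of the 44 windows, against 1.79% of 32851 windows of all genes, and the second in 2, against 0.371%. The windows of Syn1 and Nlgn1 are shown because they hold these letters, in capitals. In Syn1 (chrX:20920869-20921168, minus strand) the RE1 part begins at position -232 and the cyclic AMP response element at -159 from the start site, and in Nlgn1 (chr3:26153937-26154236, minus strand) the RE1 part begins at -153.
Syn1: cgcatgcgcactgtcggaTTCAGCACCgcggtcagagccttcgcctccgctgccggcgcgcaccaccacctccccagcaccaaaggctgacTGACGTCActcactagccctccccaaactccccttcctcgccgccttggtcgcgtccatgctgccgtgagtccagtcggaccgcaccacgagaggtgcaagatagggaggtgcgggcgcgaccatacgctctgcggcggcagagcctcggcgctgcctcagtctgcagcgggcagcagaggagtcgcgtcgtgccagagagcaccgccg
Nlgn1: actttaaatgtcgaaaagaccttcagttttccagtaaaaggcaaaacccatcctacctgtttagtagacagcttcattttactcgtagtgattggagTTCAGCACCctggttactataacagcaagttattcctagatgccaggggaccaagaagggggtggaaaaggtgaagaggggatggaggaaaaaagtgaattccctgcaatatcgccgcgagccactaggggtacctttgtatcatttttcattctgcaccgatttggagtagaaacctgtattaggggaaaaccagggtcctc
The changes of these genes were -0.07 for Syn1 and -0.21 for Nlgn1, neither past the test, and the matches describe the letters only.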

How the data were processed

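Total RNA, 150 ng per sample, was amplified, labelled and hybridised to arrays, per the labels' protocols. The deposited values are log2 levels of 28944 transcript clusters on 8 arrays, and the submitters' processing notes name Affymetrix Expression Console, RMA and Transcriptome Analysis Console, with neither version nor role. RMA as published equalises the distributions of arrays, which hides a shift common to most transcripts. The analysis started from these values, with no scan dates or detection calls, and batches were not tested.

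The 23410 clusters with a symbol in the platform annotation were tested with limma 3.58.1 in R 4.3.3 by a 2-group model without covariates, two-sided, with Benjamini-Hochberg adjustment over all of them and a threshold of 0.05. The procedure was tested on simulated data. Errors beside a change are limma standard errors, and beside a paralogue difference they come from the group variances. Samples are called biological replicates in the labels, and their number limits precision.

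The members, gene lists and naming rule were chosen with earlier results of these data known. All members were named, and of each further synaptic list the 5 genes with the smallest p per direction past the threshold. Of the further lists 66 of 72 and 69 of 77 genes were measured, and 0 and 1 of the listed genes are also in a marker list used here.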

Additional observations from a re-analysis of the deposited data

Results flagged for a closer look

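A single array stood far from the other 3 of its group in 2 of 78 groups of 4 examined for the members and for the presynaptic minus postsynaptic mean, where chance gives about 1 in 20. Control replicate 1 had a Gad2 level of 10.67, and the remaining controls had 10.28 to 10.31. Cuprizone replicate 3 had a Vsnl1 level of 13.01, and the remaining cuprizone arrays had 12.89 to 12.91.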

How the results depend on the processing

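Syt4 stayed higher and past the limma threshold in all 16 alternatives run. The count of members called was 1 in most alternatives, 2 after a second quantile normalization (2 presynaptic), 4 after median centring (2 presynaptic, 2 postsynaptic), 6 with a robust prior that follows intensity (2 presynaptic, 4 postsynaptic) and 7 among clusters above the median level (3 presynaptic, 4 postsynaptic). All members added in these fits were lower, and with the filter fewer clusters were tested. Of all clusters 9.01%, 8.47%, 9.54% and 16.3% were called in these 4 fits, against 8.22% in the fit reported. In the lower direction these fits called 3.99%, 4.22%, 4.11% and 7.47% of all clusters. Of the members they called 2.63%, 7.89%, 13.2% and 15.8% as lower. Among clusters above the median level, 12 other presynaptic genes were called, 1 higher and 11 lower, and 7 other postsynaptic genes, all lower. Leaving out 1 array gave 1 to 2 members and 1 to 2 presynaptic members called, the second being Vamp1 without cuprizone replicate 4, and 3 to 5 other presynaptic genes. Leaving out 1 array moved the change by over 1.5 times in 23 of the 38 members, among which none of the 6 lower members without overlap and not Syt4. Members with changes near 0 took the other sign when 1 array was left out, with ranges of -0.0193 to 0.0501 for Snap25, -0.0455 to 0.0238 for Nsf, -0.127 to 0.0529 for Rab3c, -0.0205 to 0.0529 for Slc32a1 and -0.0756 to 0.0542 for Homer1. Slc32a1 was at -0.00144 after quantile normalization and -0.0135 after median centring, Nsf at 0.00376 with array weights, and a dimmer Shank2 cluster at 0.0258. Same-numbered arrays of both diets correlated at -0.186 to 0.21 in their deviations. The labels do not state that the numbers pair the mice, and so few correlations cannot decide it. With the replicate number as a block 4 other presynaptic genes were called, and the call of Syt4 did not change. On the paralogue differences limma called 1 pair with the replicate block and 1 without it. The adjusted exact test, at 0 pairs, could call none with fewer than 9 pairs at its smallest p and is no measure of stability. The alternatives for the median changes, and limma without a block for the paralogues, were chosen after seeing the data.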
